A study of Tribolium castaneum with 16 samples.

Results

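Open chromatin of the larval thoracic epidermis was set against that of the late embryo in the red flour beetle Tribolium castaneum, using 8 of the 14 FAIRE peak lists of a developmental series. The 6 epidermis lists and the 2 lists of embryos aged 48 to 72 h held 148206 of the 323093 peaks, and peaks that overlapped by at least 1 bp merged into 37204 regions. Each region was classed by the lists that called it. Epidermis-only regions had a peak in all 6 epidermis lists and in no embryo list, embryo-only regions had a peak in both embryo lists and in no epidermis list, and shared regions had a peak in all 8.

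The epidermis samples came from last-instar larvae of the pu11 enhancer-trap strain, which were picked by pu11 activity. Their discs were dissected together with the lateral epidermis, with 3 samples from the second thoracic segment (T2, elytron) and 3 from the third (T3, hindwing). The embryo samples were 2 samples of whole Georgia I embryos. Chromatin was fixed for 30 minutes in all 8 samples. Library barcodes were 8 nt long in epidermis and 5 nt in embryos, so tissue, stage, strain and barcode length changed together and cannot be told apart. The labels did not say whether replicates were separate collections, so p-values measure the spread between these samples, which may be technical.

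FAIRE separates sheared, fixed chromatin by phenol-chloroform extraction, and DNA that carries few nucleosomes stays in the aqueous phase and is sequenced. Its peaks mark open chromatin, which includes active promoters, enhancers and insulators. The elytron is the hardened forewing cover of beetles and the hindwing is the flight wing; both grow from epidermal discs of the larval thorax. A late whole embryo mixes nervous system, gut, muscle and epidermis, so a region open in a small share of its cells can fall below the threshold for a peak. In bulk samples of this kind, fewer cells with an open region and less opening per cell cannot be told apart. The lists use coordinates of a genome for which no gene annotation was used here, so regions are given by position without gene names, and the labelled tissues were not checked against marker genes.

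T2 replicate 1 stood apart from the other 5 epidermis lists. It held 9725 peaks over 2.55 Mb, while the others held between 20616 and 24689 peaks. Its background depth, recovered from the lists and standing for the reads that cover a base of unenriched genome on average, was 1.96, against 3.59 to 5.77 in the other epidermis lists. The embryo lists had 1.92 in replicate 1 and 2.53 in replicate 2, so the 2 shallowest of the 8 lists lay on different sides. Results that rest on T2 replicate 1 are given with and without it.

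Epidermis lists were on average longer than embryo lists and their peaks were wider. Their number of peaks had a lowest value of 9725, a median of 21358 and a highest value of 24689 in epidermis, against 17288 and 10769 in the 2 embryo lists. The peaks of a list covered 2.55, 6.29 and 7.88 Mb in epidermis (lowest, median and highest), against 4.64 and 2.93 Mb in embryos. These ranges overlapped, through T2 replicate 1 alone. The mean difference was 5996 peaks and 2.201 Mb (epidermis minus embryo), and neither was larger than the spread between lists (exact two-sided permutation p = 0.179 for each, adjusted p = 0.179 over 4 tests). Without T2 replicate 1 the differences were 8056 peaks and 2.89 Mb, both at p = 0.0476 by the exact permutation test, the smallest of its 21 splits.

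Median peak width was 205, 237.5 and 242 bp in epidermis (lowest, median and highest), against 199.5 and 198 bp in embryos. All 6 epidermis lists lay above both embryo lists, by 34.8 bp on average (exact two-sided permutation p = 0.0357, the smallest that 28 splits allow, adjusted p = 0.0714 over 4 tests). Background depth also differed in its mean, at 3.91 ± 1.22 in epidermis (SD, n = 6) and 2.23 ± 0.431 in embryos (SD, n = 2), and its part in width was not tested. The width difference was 82.7 bp when each list was cut to its best 9725 peaks, with an exact permutation p of 0.0714. That cut takes more peaks from longer lists and none from T2 replicate 1. It can itself change the median widths, so the larger value is not stronger evidence.

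**Figure D1:**
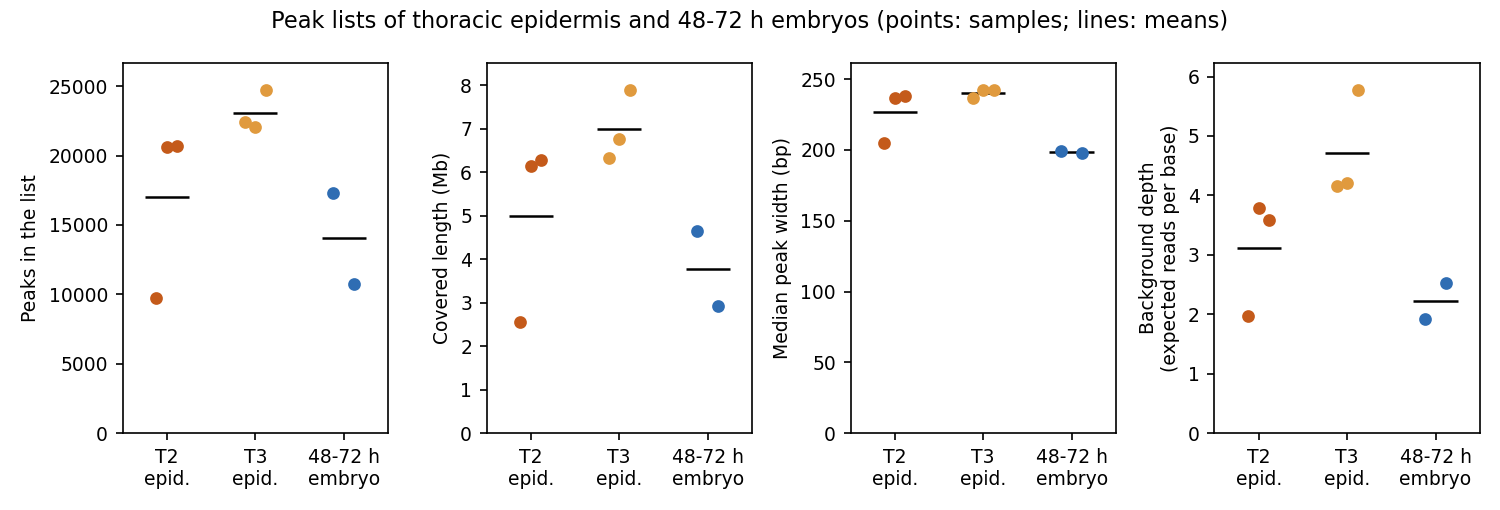
Number of peaks, covered length in Mb, median peak width in bp and background depth in expected reads per base for T2 epidermis, T3 epidermis and embryos aged 48 to 72 h; points are samples and lines are group means. T2 replicate 1, at 9725 peaks and 205 bp, lies apart from the other epidermis lists, and both embryo lists lie below 200 bp in median width.

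Lists of the same side shared more of their bases than lists of different sides. The Jaccard index of a pair, its jointly covered bases as a share of those covered at all, averaged 0.269 over the 12 pairs of an epidermis and an embryo list, and ranged over 0.225 to 0.348. It averaged 0.536 over the 15 epidermis pairs, with a range of 0.311 to 0.700, and was 0.526 for the single embryo pair. The mean of same-side pairs exceeded that of different-side pairs by 0.266 (exact one-sided permutation p = 0.0357, the smallest that 28 splits allow, adjusted p = 0.0714 over 4 tests). The other 27 splits break up replicate groups, so likeness of replicates alone can make this p small.

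Of the 37204 merged regions, 2540 (6.83%) were epidermis-only, 1900 (5.11%) were embryo-only and 4555 (12.2%) were shared. The remaining 28209 regions were called in part of one or both sides. Single-list regions were frequent, with 6478 regions called in 1 epidermis list alone and 4501 called in 1 embryo list alone. At the edges of the classes, 3407 regions had a peak in 5 epidermis lists and in no embryo list, and 3190 of these lacked only T2 replicate 1. On the embryo side, 4156 of the 4501 single-list regions were missing from replicate 2. The sizes of both classes were therefore set largely by the shortest list of each side. Without T2 replicate 1 there were 5730 epidermis-only, 1908 embryo-only and 5659 shared regions; without embryo replicate 2 there were 2684, 6143 and 5435.

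**Figure D2:**
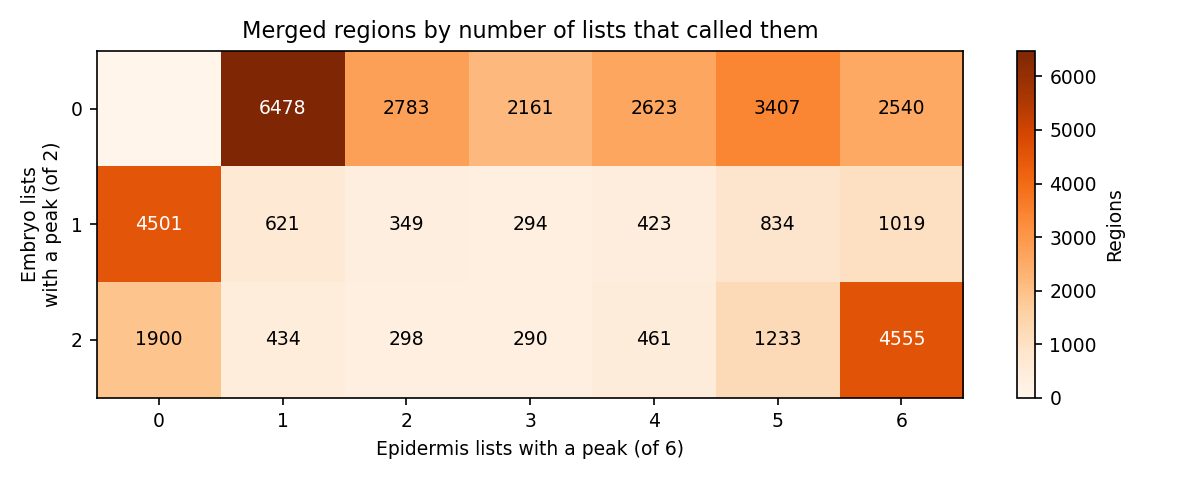
Number of merged regions by how many of the 6 epidermis lists (horizontal) and of the 2 embryo lists (vertical) had a peak there; darker cells hold more regions. The corners hold 2540 epidermis-only, 1900 embryo-only and 4555 shared regions. The largest cell holds the 6478 regions called in 1 epidermis list alone, and 4501 regions were called in 1 embryo list alone. Another 3407 regions had a peak in 5 epidermis lists and in no embryo list.

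Which class was larger differed between settings. With every list cut to its best 9725 peaks, there were 1811 epidermis-only regions (9.57%), 2139 embryo-only regions (11.3%) and 3311 shared regions (17.5%) among 18933. Epidermis-only regions made up 57.2% of the regions confined to 1 side with the deposited lists, and 45.8% at equal list sizes. Of the epidermis-only regions at equal sizes, 1486 (82.1%) were in the same class with the deposited lists, whereas of the embryo-only regions 1005 (47.0%) were, and the others lay in regions with an epidermis peak in the deposited lists. The classes also make different demands, since epidermis-only regions need a peak in 6 lists and none in 2, and embryo-only regions a peak in 2 lists and none in 6. With 2 lists on each side, for all 15 pairs of epidermis lists, the epidermis-only class was the larger in 15 of 15 pairs, with medians of 8222 and 2452 regions from the deposited lists and of 3081 and 2572 at equal list sizes. These pairs share the embryo lists and overlap in epidermis lists, so they are not 15 independent results.

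Shared regions were the widest, with a median of 459 bp, against 342 bp for epidermis-only and 259 bp for embryo-only regions. A region spans all peaks merged into it. Shared regions merge peaks of every list, epidermis-only regions those of the epidermis lists, and embryo-only regions those of the embryo lists alone. Merging more lists widens a region, and a wider region meets more lists, so this order can follow from the classing. The classes differed also in the local background used by the peak caller, given relative to the smallest background of the list. Its median was 1.87 to 1.96 in the 6 epidermis lists at epidermis-only regions, and 1.14 and 1.13 in the embryo lists at embryo-only regions, of which 35.3% and 35.1% of peaks sat at the smallest background. At shared regions it was 2.64 to 2.74 in epidermis lists and 2.55 in both embryo lists. At all 1636 summits placed on the same base in an epidermis and an embryo list, the relative background was the same within 0.01 on both sides. The part of this background in the classes was not tested.

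The most enriched epidermis-only regions reached folds above 10 in every epidermis list, where fold is the authors' enrichment of a peak over its background, without a unit. The region ChLG7:15799105-15799482 on linkage group 7, 378 bp wide, had folds of 13.7, 15.3 and 13.4 in the T2 lists and 17.1, 11.99 and 11.5 in the T3 lists. ChLG9:4847384-4847605, at 222 bp, had 11.1, 14.8 and 17.6 in T2 and 17.2, 14.2 and 14.8 in T3. Neither was called in any embryo list of any age, and both were called in both lists of larval central nervous system (CNS). ChLG6:278353-278747 had 11.4, 11.6 and 11.9 in T2 and 16.1, 11.05 and 11.3 in T3, and it was called in none of the other 8 lists of the series. T2 and T3 values overlapped at each of these 3 regions.

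The other 5 epidermis-only regions taken by the same ranking, on the smallest fold over the 6 lists, lay at ChLG3:1459410-1459682, ChLG9:4596344-4596647, ChLG2:19531252-19531553, ChLG2:396870-397067 and ChLG2:886080-886428. Their smallest folds ran from 10.5 down to 10.1. Of the 8 regions, 3 lay on linkage group 2, 2 on linkage group 9, and 7 were called in both CNS lists. Among all epidermis-only regions, 10.9% lay on linkage group 2 and 10.4% on linkage group 9. Both CNS lists had a peak at 74.6% of them, against 61.2% of all regions and 79.8% of shared regions. ChLG3:1459410-1459682 had peaks in both lists of embryos aged 0 to 24 h and in neither list of 24 to 48 h. ChLG2:886080-886428 was called in both lists of 0 to 24 h and in 1 of 2 lists of 24 to 48 h. All 8 were still epidermis-only in each of the 17 alternative settings in which they were followed. Many of these settings could hardly have lost them. Keeping the class at equal list sizes was a condition of their choice, and leaving out lists only relaxes the class rule.

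The most enriched embryo-only regions were called in most lists outside the epidermis, as was the class as a whole. All 6 lists of other groups had a peak at 78.3% of embryo-only regions, against 31.9% of all regions. The first, an 809-bp region at the start of an unplaced scaffold, had folds of 35.9 and 24.1 in the 2 embryo lists, was called in all 4 lists of younger embryos and in neither CNS list. ChLG4:9383493-9383956 had folds of 22.2 and 17.6, and ChLG5:17687240-17687485 had 22.6 and 15.3. ChLG9:15866339-15866572 had 17.8 and 14.7. These 3 regions, which no epidermis list called, had peaks in all 4 lists of younger embryos and in both CNS lists. So did the last 4 of the 8 regions, at ChLG4:10223624-10223976, ChLG4:8490703-8491066, ChLG5:15121520-15121990 and on a second unplaced scaffold, with smallest folds of 14.2, 13.6, 12.6 and 14.2. Local background was at 1.00 to 1.11 times the smallest of the list at all 8, against 1.00 to 2.06 at the 8 epidermis-only regions.

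The classes differed also in lists that took no part in the classing. Embryo-only regions were called in most lists outside the epidermis, and so were shared regions. Epidermis-only regions were seldom called at 24 to 48 h and were called most in CNS. In embryos aged 0 to 24 h, 55.9% and 67.0% of epidermis-only regions had a peak in the 2 lists, against 96.9% and 96.1% of embryo-only regions and 60.7% and 64.3% of all regions. In embryos aged 24 to 48 h these were 16.8% and 25.6% of epidermis-only regions, against 86.6% and 94.4% of embryo-only regions and 40.8% and 46.5% of all regions. In CNS they were 81.3% and 77.2% of epidermis-only regions, against 93.5% and 94.3% of embryo-only regions and 66.4% and 65.4% of all regions. Epidermis-only regions thus stood below the share of all regions at 24 to 48 h, above it in CNS and near it at 0 to 24 h. The class leaves out regions with a peak at 48 to 72 h, which all regions include. A low share in other embryo lists, above all at the adjacent stage, can therefore follow from the classing. The CNS and 0 to 24 h lists were longer, at 31485 to 36080 peaks, than the 24 to 48 h lists, at 18034 and 21309.

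**Figure D3:**
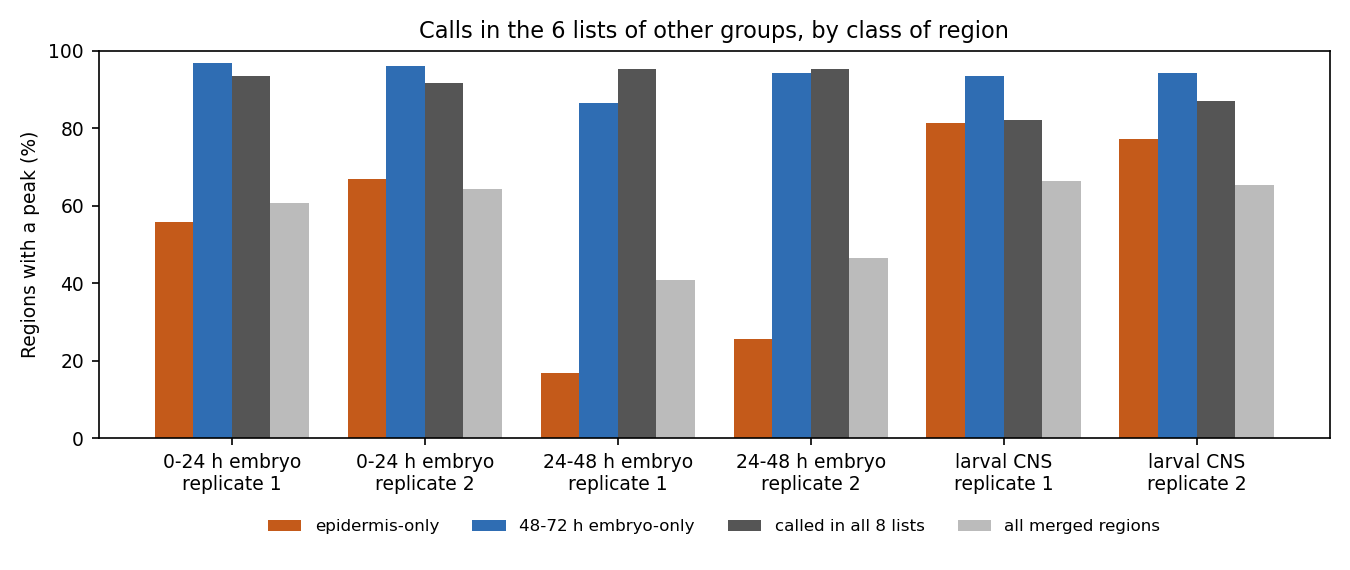
Share of regions, in percent, with a peak in each of the 6 lists that played no part in the classing, for epidermis-only, embryo-only, shared and all merged regions. Epidermis-only bars are lowest at 24 to 48 h, at 16.8% and 25.6%, and highest in CNS, at 81.3% and 77.2%, while embryo-only bars stand at 86.6% or more throughout.

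Cutting the 6 other lists to their best 9725 peaks removed the difference in length and kept the order at 24 to 48 h. There, 6.73% and 8.39% of epidermis-only regions remained called, against 47.7% and 48.6% of embryo-only regions and 24.6% and 25% of all regions. In CNS the shares were 29.4% and 26.5% for epidermis-only regions, against 39.8% and 44.6% for embryo-only regions and 25.1% and 25.7% for all regions. At 0 to 24 h they were 15.7% and 19.4%, against 42.5% and 39.5%, with 25.8% and 25.9% of all regions. At equal lengths epidermis-only regions thus lay below all regions at both embryonic stages and slightly above them in CNS. Shared regions stood above both classes in each of the 6 lists, at 63.4% to 85.5%.

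Taken over the 6 other lists together, 267 epidermis-only regions (10.5%) were called in none of them, against 8 embryo-only regions (0.421%) and 21.6% of all regions. At the other end, 305 epidermis-only regions (12.01%) were called in all 6, against 1487 embryo-only regions (78.3%) and 31.9% of all regions. A peak in both CNS lists and in no list of younger embryos was found at 391 epidermis-only regions (15.4%), against 6.33% of all regions. Another 681 epidermis-only regions (26.8%) had a peak in both lists of 0 to 24 h and in neither of 24 to 48 h, against 42 embryo-only regions (2.21%) and 12.2% of all regions. Without T2 replicate 1 in the class, of the 5730 regions called in the other 5 epidermis lists and in no embryo list, 15.4% and 23.6% had a peak at 24 to 48 h, 78.3% and 73.9% in CNS, and 12.3% in none of the 6.

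Stronger epidermis-only regions were called more often elsewhere. Ordered by smallest fold and divided into 4 sets of 635, the lowest set (1.45 to 3.25) had 48.7% called in both CNS lists and 28.3% in none of the 6 other lists. The highest set (4.92 to 11.5) had 89.6% called in both CNS lists and 2.36% in none. Over all regions these shares were 61.2% and 21.6%. The share called in both lists of 24 to 48 h was 8.35%, 14.2%, 13.5% and 15.9% from the lowest set to the highest, against 36.8% of all regions. Embryo-only regions, divided in the same way, had 93.5% called in both CNS lists in the lowest set and 89.5% in the highest. In both lists of 24 to 48 h they had 80.6% and 89.7%. Where they were called, epidermis-only regions ranked lower than embryo-only regions in each of the 6 other lists, at a median percentile of 57.6 and 54.5 in CNS, against 67.0 and 70.5 for embryo-only regions. The corresponding medians at 24 to 48 h were 31.7 and 37.3, against 55.7 and 59.6. These are descriptions across regions, which share libraries and are not replicates.

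At shared regions the order of enrichment differed between the sides. Each list's folds were ranked over the 4555 shared regions, turned into normal scores, and compared by limma with Benjamini-Hochberg adjustment over all 4555. Of these, 948 regions (20.8%) ranked higher in epidermis and 971 (21.3%) ranked higher in embryos at an adjusted p below 0.05. Ranking gives every list the same mean score, so shifts average 0 over the shared regions whatever the overall enrichment of a list. With log2 folds in place of ranks, 786 regions were higher in epidermis and 1296 in embryos. Each list's median log2 fold over the shared regions was subtracted first, so differences in overall enrichment were largely taken out there too. At an unadjusted p below 0.05 there were 2372 regions. All 6 epidermis percentiles lay above both embryo percentiles at 1069 regions (23.5%), and below both at 1149 (25.2%). The numbers past the adjusted threshold, in epidermis and in embryos, were 1392 and 1542 without T2 replicate 1; without embryo replicate 1 they were 579 and 413, and without embryo replicate 2 they were 735 and 606.

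Pearson's r of the scores, across regions within pairs of lists, was 0.442 to 0.507 over the 12 pairs of an epidermis and an embryo list. It was 0.857 to 0.929 over the 10 epidermis pairs without T2 replicate 1, 0.653 to 0.715 over the 5 pairs with it, and 0.884 for the embryo pair. The same fit between the 2 segments, T2 and T3, called 0 of 4555 regions (0%), with 244 at an unadjusted p below 0.05, which is 5.36%. That does not show the segments to be the same.

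**Figure D4:**
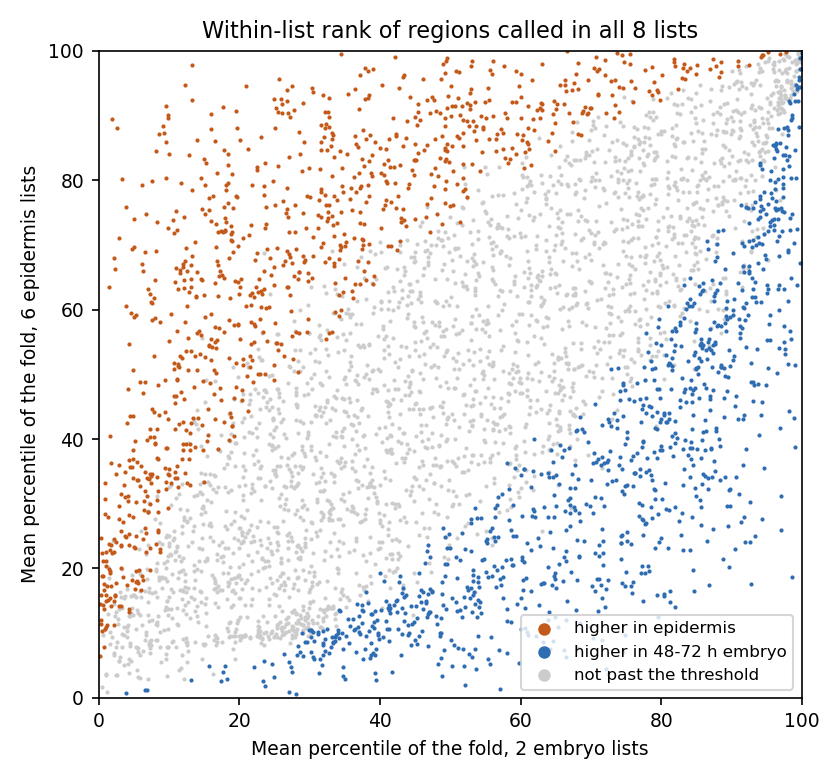
Mean percentile of the authors' fold at each of the 4555 shared regions, over the 6 epidermis lists (vertical) and over the 2 embryo lists (horizontal); colour marks the limma call at an adjusted p below 0.05. The 948 regions higher in epidermis fill the upper left and the 971 higher in embryos the lower right.

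Among regions shared also at equal list sizes, the largest shift toward the epidermis was at ChLG9:8875838-8876093, a 256-bp region. Its folds were 12.6, 19.1 and 21.0 in T2 and 19.8, 18.5 and 15.2 in T3, against 5.01 and 5.43 in the embryo lists. It ranked at a median percentile of 99.9 among shared regions in epidermis, against 19.5 and 49.4 in embryos, and the shift was 3.44 ± 0.377 (SE, in normal scores; limma adjusted p = 0.000120). ChLG7:4965127-4965551 had folds of 13.7, 13.8 and 14.4 in T2 and 13.4, 13.0 and 11.5 in T3, against 4.60 and 3.54 in embryos. Its percentiles had a median of 97.8 in epidermis, against 14.7 and 11.9 in embryos (shift 3.15 ± 0.208, limma adjusted p = 8.82e-06). ChLG6:5775077-5775468 had folds of 19.6, 19.8 and 20.8 in T2 and 19.9, 18.5 and 15.3 in T3, against 8.82 and 6.92 in embryos (shift 2.76 ± 0.205, limma adjusted p = 1.71e-05). Its median percentile was 99.9 in epidermis, against 66.2 and 67.2 in embryos. Epidermis and embryo values did not overlap at any of the 3 regions.

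The next 5 regions in this direction were ChLG8:5891809-5892282, ChLG8:2064511-2064988, ChLG9:11185837-11186289, ChLG9:8339796-8340243 and a region on an unplaced scaffold, with shifts between 2.44 and 2.66. Their smallest and largest folds over the 6 epidermis lists were 8.10 and 16.9. Their embryo folds ran from 3.06 to 6.77. Of the 8 regions, 3 lacked a peak in at least 1 list of 24 to 48 h and all 8 were called in both lists of 0 to 24 h and of CNS. Among all shared regions, 92.5% were called in both lists of 24 to 48 h. Both lists of 0 to 24 h had a peak at 91.3% of them and both CNS lists at 79.8%. The summits of the sides lay within 51 bp of each other at all 8, by their medians.

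By the highest fold of each list, the largest shift toward the embryo among the same regions was at ChLG9:9432408-9433523, 1116 bp wide. Its folds were 3.15, 4.77 and 4.42 in T2 and 4.28, 3.797 and 2.69 in T3, against 23.1 and 16.8 in embryos. Its median percentile was 21.7 in epidermis, against 99.0 and 98.4 in embryos (shift −3.19 ± 0.292, limma adjusted p = 5.26e-05). With the mean fold of a list's peaks in place of the highest, its shift was −2.05 (limma adjusted p = 0.000279), smaller than those of the other 7 named regions, and it had no value with summit windows, with 50% coverage or in the best 50% of each list. ChLG7:5668060-5668360 had folds of 3.17, 5.52 and 7.75 in T2 and 5.75, 5.02 and 5.16 in T3, against 23.2 and 18.7 in embryos (shift −2.73 ± 0.416, limma adjusted p = 0.000514). ChLG8:12829370-12829660 had 5.37, 6.0 and 6.41 in T2 and 5.24, 5.35 and 4.77 in T3, against 22.8 and 18.4 in embryos (shift −2.48 ± 0.216, limma adjusted p = 5.22e-05). Epidermis values stayed below 8 and embryo values above 16 at all 3.

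The next 5 were ChLG3:7702757-7703204, ChLG1:724000-724307, ChLG9:18863486-18863842 and regions on 2 unplaced scaffolds, with shifts between −2.23 and −2.45. The 3 on linkage groups had embryo folds between 16.04 and 27.96. The 2 on scaffolds were 3537 and 2166 bp wide, had a local background of 6.08 and 14.4 times the smallest of the list, and their summits lay 1781 and 1548.5 bp apart between the sides, so different peaks of a wide region were compared there. All 8 were called in all 4 lists of younger embryos. Such calls were common, as 91.3% of all shared regions had a peak in both lists of 0 to 24 h. In both lists of 24 to 48 h the share was 92.5%.

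Regions ranked higher in embryos lay more often on unplaced scaffolds and at higher background. Scaffolds held 9.70% of the regions higher in epidermis, against 33.1% of those higher in embryos and 18.9% of the shared regions with neither call. The median relative background was 2.25 at regions higher in epidermis, against 3.53 at regions higher in embryos and 2.55 at the rest. On linkage groups only, 746 regions ranked higher in epidermis and 754 in embryos. The part of background in these shifts was not tested.

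The shifts were followed into the lists of other groups at the 3418 regions called in all 14 lists. The 749 of these that ranked higher in epidermis had median percentiles of 27.8 and 29.5 at 24 to 48 h, near the 22.1 and 21.8 of the embryos at 48 to 72 h. They stood at 37.1 and 42.1 at 0 to 24 h and at 45.3 and 40.3 in CNS. The 678 that ranked higher in embryos at 48 to 72 h, where their medians were 78.8 and 78.3, stood at 73.5 and 72.4 at 24 to 48 h. At 0 to 24 h they stood at 63.5 and 56.8, and in CNS at 53.5 and 57.5. In both sets the 24 to 48 h lists lay closest to the embryos at 48 to 72 h, while the 0 to 24 h and CNS lists lay nearer the middle of the ranks and overlapped each other.

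The strongest regions common to all 8 lists ranked at the top on both sides. ChLG5:10933535-10933912 had folds of 15.7, 18.3 and 19.2 in T2 and 20.7, 15.5 and 16.2 in T3, against 32.6 and 21.3 in embryos. ChLG9:7710847-7711304 had 15.8, 20.1 and 18.9 in T2 and 20.2, 16.5 and 15.2 in T3, against 26.8 and 19.9 in embryos. A 438-bp region on an unplaced scaffold had between 14.9 and 20.7 in epidermis, against 25.9 and 19.0 in embryos. All 3 stood above the 99th percentile of shared regions in each of the 8 lists and were called in all 14 lists of the series.

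Summits within shared regions lay farther apart between the sides than within them. The median distance between the strongest summits of a pair of lists was 25 to 27 bp over pairs of an epidermis and an embryo list, 13 to 18 bp over epidermis pairs and 13 bp in the embryo pair. Over all shared regions, summits were within 50 bp at 67.9% to 69.5% of regions in pairs of an epidermis and an embryo list, against 79.8% to 86.3% in epidermis pairs and 83.6% in the embryo pair. They were over 200 bp apart at 11.6% to 13.0% of regions between the sides, against 4.37% to 7.46% in epidermis pairs and 5.25% in the embryo pair. In 2204 regions (48.4%) the summits agreed to within 50 bp inside each side. Of these, 1967 (89.2%) had summits within 50 bp between the sides as well, and 81 (3.68%) had them over 200 bp apart. The largest such distances on linkage groups included 782.5 bp at ChLG9:10484608-10485862, 780 bp at ChLG4:5742815-5743844, 518.5 bp at ChLG8:13287751-13288598 and 494 bp at ChLG7:12141364-12142539. At the second of these the 6 epidermis summits fell within 19 bp of each other around position 5743725, and the 2 embryo summits within 13 bp around 5742945.

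The sides differed in how their peaks were spread over the genome. For 5 of 11 sequence classes (45.5%), the ranges of the epidermis and embryo lists did not overlap. Linkage group 8 held 7.63%, 8.31% and 8.58% of peaks in epidermis (lowest, median and highest), against 10.4% and 10.3% in embryos. Linkage group 6 held 4.20%, 4.95% and 5.06% in epidermis, against 6.28% and 5.90% in embryos. Both shares were lower in all 6 epidermis lists. Linkage group 3 held 13.0%, 13.2% and 13.8% in epidermis, against 11.5% and 11.9% in embryos, and was higher in all 6. Linkage group 2 was also higher in epidermis and linkage group 9 lower, by less than 1 percentage point between the nearest lists.

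The 6 lists of younger embryos and CNS lay on the embryo side of the epidermis range for linkage groups 3, 6, 8 and 9. They did not for linkage group 2, where they held 9.24% to 10.8%, against 8.99% to 10.2% in epidermis and 8.93% and 8.78% in embryos at 48 to 72 h. Their shares were 10.98% to 12.5% on linkage group 3, 5.25% to 6.08% on linkage group 6 and 9.40% to 10.2% on linkage group 8. On linkage group 9 they were 10.57% to 11.03%, above the highest epidermis share of 10.43%. The classes are built from the peaks of the same 8 lists, so their shares count these differences again. Linkage group 8 held 7.13% of epidermis-only regions, against 14.2% of embryo-only regions and 9.15% of all regions, and linkage group 3 held 15.6%, against 10.8% and 13.0%. In windows of 200 kb, the most epidermis-only regions were 16, at ChLG2:5200001-5400000, which held 1 embryo-only region and 70 regions of any class. The most embryo-only regions were 15, at ChLG7:18800001-19000000, which held 12 epidermis-only regions as well and 120 regions of any class. Windows held 37.0 regions on average, so both were dense in regions.

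**Figure D5:**
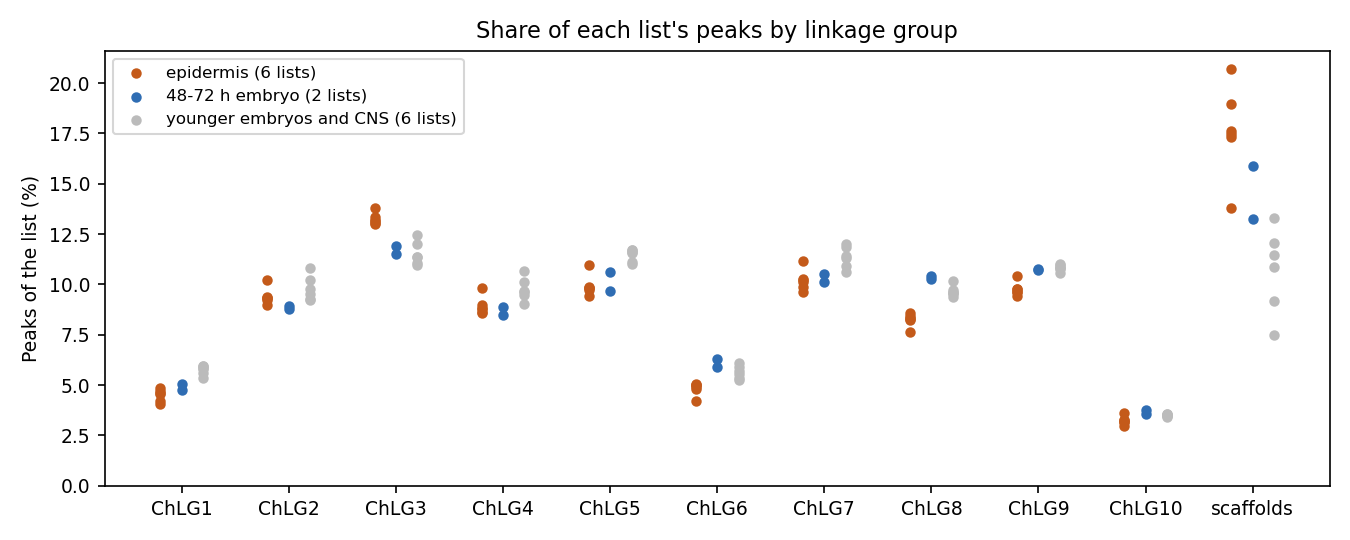
Share of each list's peaks, in percent, on the 10 linkage groups and on unplaced scaffolds, for the 6 epidermis lists, the 2 lists of embryos aged 48 to 72 h and the 6 lists of younger embryos and CNS; points are lists. On linkage group 8 the epidermis lists lie at 7.63% to 8.58%, below both embryo lists at 10.4% and 10.3%, and on linkage group 3 they lie above them.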

How the data were processed

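FAIRE-seq peak lists of single samples were analysed as deposited. Per the submitters' processing notes, the authors' processing named Trimmomatic 0.32, Bowtie2 2.2.3, SAMtools 0.1.12a, deepTools 2.5.2 and MACS2 2.1.1.20160309. The genome build and the control used in peak calling are not given in the sources used here. The deposited lists give each peak's fold, the authors' ratio of pileup to background, with −log10 of its p-value and of its q-value; the smallest −log10 q values correspond to a q threshold of 0.05. Total reads are unknown. Pileup and background were solved from fold and −log10 p.

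Samples were grouped by title. Peaks were merged and classed as described in the report, with coordinates counted from 1. List values were compared by exact permutation, and fold ranks at shared regions (highest fold of a list in a region) by limma 3.58.1 in R 4.3.3, with Python 3.11.15, pandas 2.3.3 and SciPy 1.17.1; the scripts were tested on simulated data. Equal list sizes keep the 9725 peaks with the largest −log10 p. Named regions are, for each class confined to 1 side, the 8 whose smallest fold is largest, and the 8 largest called rank shifts in each direction, among regions that keep their class at equal list sizes, and the 3 shared regions with the largest smallest fold; the moved summits, windows and linkage groups were chosen after their values were seen. Members and lists were chosen with earlier results of these data known. Replicate numbers were not taken to pair the samples: over 7 same-number pairs the correlation of deviations from the group means was −0.00937 to 0.253, above 0.1 in 2. The 2 input libraries were not analysed here.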

Additional observations from a re-analysis of the deposited data

Results flagged for a closer look

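Among 32 sets of 6 epidermis values checked for a list far from the others, 7 stood out, where chance alone gives about 1 in 20. T2 replicate 1 was lowest in number of peaks (9725), in covered length (2.55 Mb) and in median peak width (205 bp), and highest in median relative background of its peaks (2.35). It was also highest in fold at 2 shared regions that ranked higher in embryos, with 8.50 at ChLG3:7702757-7703204 and 4.38 at a scaffold region. At the epidermis-only region ChLG6:278353-278747, T3 replicate 1 was highest with a fold of 16.1. These sets share lists and are not independent.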

How the results depend on the processing

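Each of the 8 named epidermis-only regions kept its class in all 17 settings followed. The 16 named rank shifts kept direction and call wherever a value existed, though not always their size. These regions were chosen as the strongest of their kind, among those that keep their class at equal list sizes. Leaving out lists only relaxes the class rule, so this says little about other regions. Among the 8 named embryo-only regions and the 3 strongest shared regions, those on scaffolds were lost on linkage groups only. The difference in median width was 82.7 bp at equal list sizes (exact permutation p = 0.0714), 27.9 bp with T2 lists only (p = 0.20) and 41.6 bp with T3 lists only (p = 0.10, the smallest of 10 splits); overlap was 0.215 with T2 only and 0.316 with T3 only (exact permutation p = 0.10 for each). The best 50% of each list gave 1194 epidermis-only, 913 embryo-only and 2528 shared regions, with 570 and 641 shared regions higher in epidermis and in embryos. Requiring peaks over at least 50% of a region gave 1495 epidermis-only regions, fewer than the 1584 embryo-only ones, 2126 shared regions, and 411 higher on each side. T3 lists only gave 7222 epidermis-only regions, T2 lists only gave 556 regions higher in embryos, and pairs of epidermis lists, added after seeing the data, gave a median of 8222 epidermis-only regions. Rescaling to one depth, which adds no counting noise, gave 2489 epidermis-only and 1975 embryo-only regions. The cause of these changes was not tested, other than fewer lists or peaks by construction.

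Leaving out each list in turn gave differences of 2737 to 9256 peaks, 1.34 to 3.06 Mb, 33.0 to 40.5 bp in width and 0.237 to 0.353 in overlap. Class sizes ranged over 2561 to 5730 epidermis-only, 1908 to 6143 embryo-only and 4563 to 5659 shared regions, and rank shifts over 579 to 1392 toward epidermis and 413 to 1542 toward embryos. Without an embryo list, width and overlap had an exact permutation p of 0.143, the smallest of 7 splits. With the replicate number as a block, limma called 869 regions higher in epidermis and 807 higher in embryos. In their deviations from the group means, 7 of 8 lists correlated best, among lists of other groups, with one of their own number. Between epidermis and embryo lists these correlations were only −0.00937 to 0.0317. Deviations within a group also depend on each other, so the count does not test pairing, on which the labels do not bear. List depth limits which weak peaks are called, so absence from a list does not show closed chromatin.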
